A study of Drosophila melanogaster with 6 samples.

Results

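Serpins are protease inhibitors that act as bait. A target protease cuts the exposed reactive loop of the serpin and is then trapped in a covalent complex, so each serpin molecule works only once. In the fly, serpins in the hemolymph restrain the serine protease cascades that lead to activation of the Toll ligand Spätzle and to melanization by prophenoloxidases, and other serpins act inside cells. Hemocytes, the blood cells of the fly, and the fat body both release immune factors into the hemolymph.

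The serpins described here are the protein-coding genes of the deposited count table whose symbol is Spn followed by a digit, plus necrotic (nec), which together are 19 of 13395 genes. They were measured in hemocytes of animals that carried the Hml-GAL4.delta driver and UAS-GFP, collected at 2 stages. The larval group came from L3 wandering larvae (3 libraries) and the prepupal group from white prepupae (3 libraries). Both groups share the genotype, so no animals without the driver were compared, and GFP marked only cells in which the hemolectin (Hml) driver had been active. GFP-positive cells were sorted by flow cytometry before RNA extraction, and no label states how many animals were pooled for a library.

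The libraries held between 19228352 and 25958543 counts. Of all genes, 7914 passed the filter on low counts and were tested, and 4264 differed between the stages with an adjusted p below 0.05, which is 53.9%. This value, written FDR, is the p of the quasi-likelihood test of edgeR adjusted over all genes tested by the method of Benjamini and Hochberg. Higher in prepupae were 26.6% of the tested genes and lower 27.3%. Longer genes tended to lie lower in prepupae, with a Spearman correlation of exonic length with log2 fold change of -0.40 over 7873 tested genes. The cause of this length trend was not tested. With total counts in place of TMM factors, 33.2% of the calls were higher rather than 49.4%, and the median log2 fold change of all genes shifted from -0.026 to -0.22. Hml itself fell from 4912 ± 1593 to 149 ± 87.6 CPM (counts per 1000000 counts of the library, scaled by TMM factors, SD, n = 3 each, edgeR FDR = 2.5e-05). Of the 8 plasmatocyte markers 7 were lower in prepupae, and the 4 crystal cell markers were all lower. In bulk libraries, fewer cells of a type and less RNA per cell cannot be told apart.

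The 19 genes lie on 4 chromosome arms (dm6), with 11 of them on 2R, 4 on 3R, 3 on 2L and 1 on 3L. There are 3 clusters of neighbours. Spn42Da, Spn42Db, Spn42Dc, Spn42Dd and Spn42De lie next to each other on 2R between 6875906 and 6888262. Spn43Aa, Spn43Ab, Spn43Ad and nec follow on the same arm between 7147692 and 7158241, and Spn88Ea and Spn88Eb are 255 bp apart on 3R. Paralogs of this kind can share reads, and the sources used here do not say how reads that fit several genes were treated.

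Hemocytes of both stages expressed a defined subset of the family. Of the 19 serpins, 11 passed the low-count filter, and the other 8 had between 0 and 33 counts in any library. No tested serpin was switched fully on or off between the stages. Of the 11 tested genes, 6 were called, 3 higher in prepupae (Spn77Ba, Spn55B and Spn88Ea) and 3 lower (Spn27A, Spn47C and Spn42Db). This is 54.5% of the tested serpins, against 53.9% of all tested genes, so serpins as a group were called about as often as other genes. The CPM of the 2 stages did not overlap for 7 of the 11, or 63.6%, against 63.0% of all tested genes. The median log2 fold change of the tested serpins was 0.15 and that of all tested genes -0.026.

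To compare genes with each other, CPM were divided by the exonic length of the gene in kb. On this scale of levels, Spn27A came first in larval hemocytes with 221 ± 19.0 CPM per kb (SD, n = 3), which placed it at rank 290 of the 13332 genes with a known length. Spn28Dc followed at 73.8 ± 2.52 CPM per kb. Spn88Ea (40.7), Spn42Da (38.3) and Spn42Dc (37.6 CPM per kb) came next, and the ranges of neighbours in this order overlapped between libraries. Spn55B was at 28.4 ± 4.13 CPM per kb. The remaining tested genes were far lower, from 6.97 CPM per kb for Spn88Eb over 4.41 for Spn77Ba, 3.19 for Spn42Dd and 1.95 for Spn47C to 1.16 CPM per kb for Spn42Db. In this lower part, the ranges of Spn88Eb and Spn77Ba overlapped, as did those of Spn77Ba and Spn42Dd.

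In prepupal hemocytes Spn27A was still first, at 131 ± 15.9 CPM per kb (SD, n = 3) and rank 634 of 13332, and Spn28Dc was still second, at 66.7 ± 4.66 CPM per kb. Spn88Ea (56.9 CPM per kb) and Spn55B (53.2 CPM per kb) followed with overlapping ranges, and both lay above Spn42Da (43.1) and Spn42Dc (41.8 CPM per kb). Spn55B thus moved above both of these genes, and Spn77Ba, at 11.4 ± 1.03 CPM per kb, passed Spn88Eb. Spn42Dd, Spn47C and Spn42Db stayed at the low end, with 2.17, 0.788 and 0.324 CPM per kb.

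**Figure D1:**
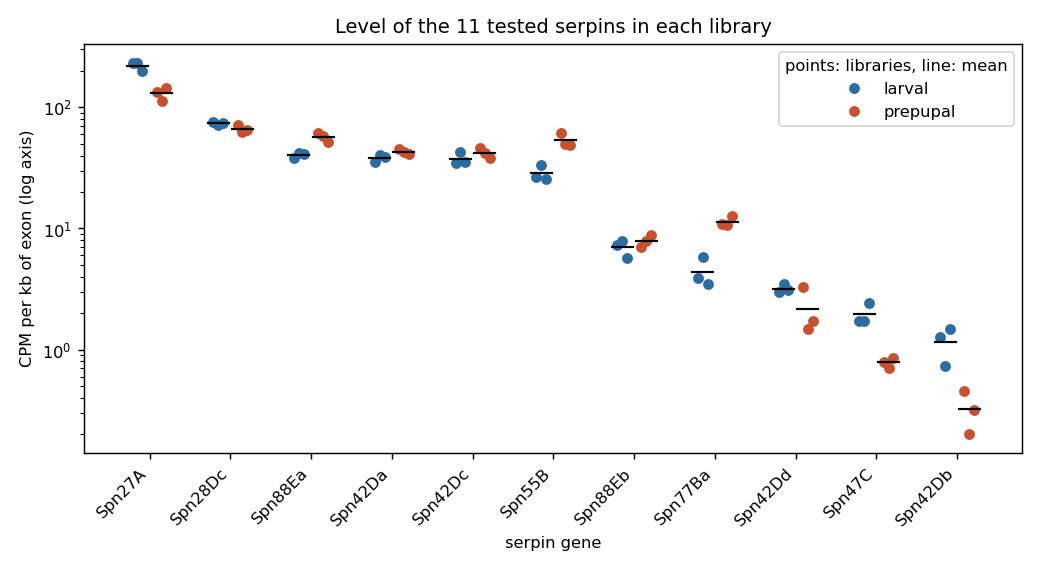
Level of the 11 tested serpins in each library as CPM per kb of exon (log axis). Points are the 3 larval and 3 prepupal libraries and black lines the means. Spn27A is the highest gene at both stages and the 6 highest genes are at 25.4 CPM per kb or more in every library.

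Spn27A (FBgn0028990) lies on the minus strand of 2L from 6671065 to 6673347, in 1 exon. It blocks the protease Easter in the embryo, where it limits Toll activation to the ventral side, and restrains melanization in the hemolymph. Its expression was 525, 534 and 455 CPM in larval and 308, 258 and 329 CPM in prepupal replicates 1, 2 and 3. Every larval library lay above every prepupal library. The gene fell by 0.76 on the log2 scale, with a standard error (SE) of 0.13 and an edgeR FDR of 0.0010. Its level was thus 1.69-fold higher in larvae, and it was lower in prepupae in 3 of 3 pairs of same-numbered libraries. With one library left out at a time it ranged from -0.83 to -0.66.

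Since Spn27A was so abundant, it dominated the serpin total. All 19 genes together reached 939, 984 and 878 CPM in larval and 849, 750 and 809 CPM in prepupal replicates 1, 2 and 3. Without Spn27A the order of the stages on this TMM scale was the opposite, with 414, 450 and 423 CPM in larval and 541, 492 and 480 CPM in prepupal libraries. Scaled by total counts instead, the sums without Spn27A overlapped between the stages, so this order depends on the scaling. As a share of the summed serpin CPM per kb, Spn27A took 48.2 ± 1.97% (SD, n = 3) in larval and 31.4 ± 3.02% in prepupal hemocytes. The share of Spn28Dc was 16.2 ± 1.28% and 16.0 ± 0.226%, that of Spn55B 6.19 ± 0.575% and 12.8 ± 0.923%, that of Spn88Ea 8.90 ± 0.649% and 13.7 ± 1.18%, and that of Spn77Ba 0.955 ± 0.225% and 2.74 ± 0.287%. Shares add up to a fixed sum, so a lower share of Spn27A raises those of the others.

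**Figure D2:**
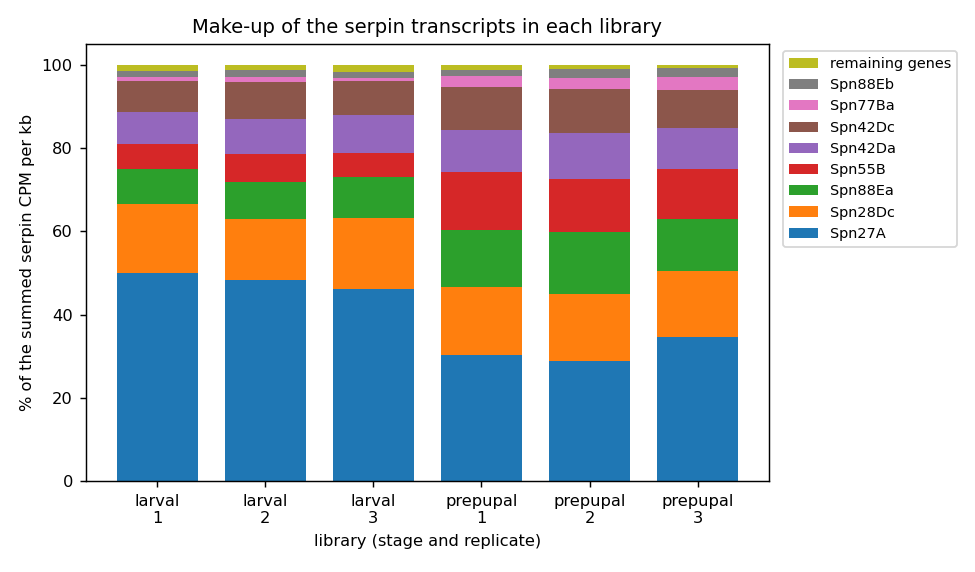
Share of each serpin in the summed serpin CPM per kb of every library, in percent, as stacked bars for 3 larval and 3 prepupal libraries. Spn27A takes 46.2 to 50.1% of the larval and 28.9 to 34.8% of the prepupal bars, while Spn28Dc keeps a nearly equal part.

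Besides Spn27A, Spn28Dc and Spn77Ba are also known to restrain melanization, Spn28Dc after wounding and Spn77Ba in the tracheae. These 3 genes did not change alike. Spn77Ba (FBgn0262057, plus strand of 3L from 20317190 to 20320116) was expressed at 8.43, 12.7 and 7.47 CPM in larval and 23.5, 23.1 and 27.1 CPM in prepupal replicates 1, 2 and 3. The lowest prepupal value was well above the highest larval value. Its log2 fold change of 1.37 (SE 0.20, edgeR FDR = 0.00045) was the largest rise among the tested serpins and equals 2.59-fold, with a rise in 3 of 3 pairs. The annotation places an antisense RNA with 94 shared exonic bp on the opposite strand, which was not analysed here, and the libraries do not separate strands.

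Spn28Dc (FBgn0031973, minus strand of 2L from 8004548 to 8007210) was expressed at 137, 128 and 133 CPM in larval and 129, 113 and 117 CPM in prepupal replicates 1, 2 and 3. The 2 ranges overlapped slightly. The log2 fold change was -0.15 (FDR = 0.26, edgeR), with a 95% interval from -0.38 to 0.087, so a change of more than 2-fold in either direction lies outside it. Scaled by total counts it was called lower (-0.34, FDR = 0.021, edgeR).

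Spn88Ea and Spn42Dd have been linked to the Toll pathway, Spn88Ea also to the unfolding of the adult wing. Spn88Ea (FBgn0028984, minus strand of 3R from 15203069 to 15206447) was expressed at 58.2, 64.4 and 63.1 CPM in larval and 92.7, 88.3 and 78.9 CPM in prepupal replicates 1, 2 and 3. The stages did not overlap. The rise was 0.49 on the log2 scale (SE 0.11, edgeR FDR = 0.0052), or 1.40-fold, and was seen in 3 of 3 pairs. It was the smallest of the called changes, and scaling by total counts reduced it to 0.29 (FDR = 0.049). The gene shares 6 exonic bp with CG42542 on the opposite strand, which had 2036 to 4128 counts in the libraries. Its neighbour Spn88Eb (FBgn0038299) was expressed at 10.4, 11.3 and 8.24 CPM in larval and 10.1, 11.2 and 12.8 CPM in prepupal replicates 1, 2 and 3. These ranges overlapped, and the log2 fold change was 0.19 (95% interval -0.21 to 0.58, FDR = 0.39, edgeR). Scaled by total counts, Spn88Eb was at -0.0047.

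Spn42Dd (FBgn0028988, plus strand of 2R from 6883280 to 6884873) was expressed at 3.60, 4.13 and 3.69 CPM in larval and 3.94, 1.78 and 2.05 CPM in prepupal replicates 1, 2 and 3. Prepupal replicate 1 lay among the larval libraries, while the other two prepupal libraries lay below them. The log2 fold change was -0.56 (95% interval -1.30 to 0.18, FDR = 0.18, edgeR). It became -0.99 without prepupal replicate 1 (FDR = 0.022, edgeR), so this library decided the call. Of the exonic bases of Spn42Dd, 63 bp also belong to Spn42Dc on the same strand, which had 1231 to 1627 counts against 36 to 99 for Spn42Dd.

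The necrotic protein is the serpin that keeps the Toll-activating protease Persephone in check. The gene nec had 0, 1 or 2 counts in each of the 6 libraries and was not tested. The gene of its target, psh, had 0 counts in every library. At these depths 3 counts, the upper limit that a count of 0 allows, correspond to between 0.109 and 0.169 CPM per library, which covers counting error only. The neighbours of nec were also near the floor. Spn43Ad had 0 counts in every library and Spn43Ab at most 6. Spn43Aa had 2, 3 and 3 counts in larval and 6, 33 and 4 counts in prepupal replicates 1, 2 and 3, so that a single prepupal library held most of them.

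Among serpins with a role inside cells, Spn42Da (FBgn0265137, minus strand of 2R from 6875906 to 6878927) is known to inhibit furin, which cleaves proproteins in the secretory pathway. The annotation lists 11 transcripts with 4 different last coding exons. These last exons include alternative reactive loops, and counts per gene do not separate them. Spn42Da was expressed at 94.7, 107 and 104 CPM in larval and 121, 114 and 109 CPM in prepupal replicates 1, 2 and 3. The stages did not overlap, but the difference was small, with a log2 fold change of 0.17 (95% interval -0.068 to 0.41, FDR = 0.20, edgeR). With the transcript length trend of each library removed it was called higher (0.39, FDR = 0.0090, edgeR), and with total counts it was at -0.029. The antisense RNA asRNA:CR44169, not analysed here, shares 281 exonic bp with Spn42Da and 380 with Spn42Db on the opposite strand. The furin genes Fur1 and Fur2 were not called either (log2 fold changes of -0.17 and -0.13), and with the length trend removed both were called higher, at 0.49 and 0.42.

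Spn55B, Spn47C, Spn42Db and Spn42Dc are described by their values only. Spn55B (FBgn0028983, plus strand of 2R from 18126347 to 18128210) was expressed at 34.7, 43.0 and 32.9 CPM in larval and 78.8, 64.5 and 63.9 CPM in prepupal replicates 1, 2 and 3. All prepupal libraries lay above all larval ones. Its log2 fold change of 0.91 (SE 0.14, edgeR FDR = 0.00070), or 1.87-fold, made it the second largest rise among the tested serpins.

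Spn47C (FBgn0033574, minus strand of 2R from 10938425 to 10941738) was expressed at 5.41, 5.45 and 7.69 CPM in larval and 2.53, 2.23 and 2.73 CPM in prepupal replicates 1, 2 and 3. The larval libraries were all higher. The log2 fold change was -1.31 (SE 0.25, edgeR FDR = 0.0018), or 2.47-fold higher in larvae.

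Within the cluster at 42D the genes differed both in level and in their change. Spn42Db (FBgn0033112, minus strand of 2R from 6879285 to 6880770) was expressed at 1.89, 1.09 and 2.19 CPM in larval and 0.675, 0.297 and 0.473 CPM in prepupal replicates 1, 2 and 3. The stages did not overlap, but the prepupal values rested on 12, 6 and 9 counts. The log2 fold change was -1.84 with a wide 95% interval from -2.86 to -0.83 (FDR = 0.0072, edgeR), the largest fall among the tested serpins. With one library left out at a time it ranged from -2.15 to -1.58, and the gene was called each time. Spn42Dc (FBgn0033113, plus strand of 2R from 6880995 to 6883407), 224 bp away, was expressed at 59.1, 72.5 and 60.5 CPM in larval and 78.1, 71.0 and 64.6 CPM in prepupal replicates 1, 2 and 3. Its stages overlapped, and its log2 fold change was 0.15 (95% interval -0.13 to 0.44, FDR = 0.33, edgeR). The intervals of Spn42Da and Spn42Dc lie apart from that of Spn42Db. Spn42De had 0, 2 and 5 counts in larval and 0 counts in all prepupal libraries.

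Of the remaining genes below the filter, Spn100A had 3, 3 and 4 counts in larval and 5, 14 and 12 counts in prepupal replicates 1, 2 and 3. Spn85F had between 2 and 7 counts and Spn31A at most 2. Of the 8 genes below the filter, Spn43Aa was called higher by the fit without a filter (log2 fold change 2.65, FDR = 0.012, edgeR), on the few counts given above. Spn43Aa also shares 116 exonic bp with CG12828 on the opposite strand, which was not analysed here, and the libraries do not separate strands. Spn100A was not called there (FDR = 0.053, edgeR), but passed the filter and was called higher without larval replicate 2 (FDR = 0.041) or 3 (FDR = 0.043) or prepupal replicate 1 (FDR = 0.013).

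**Figure D3:**
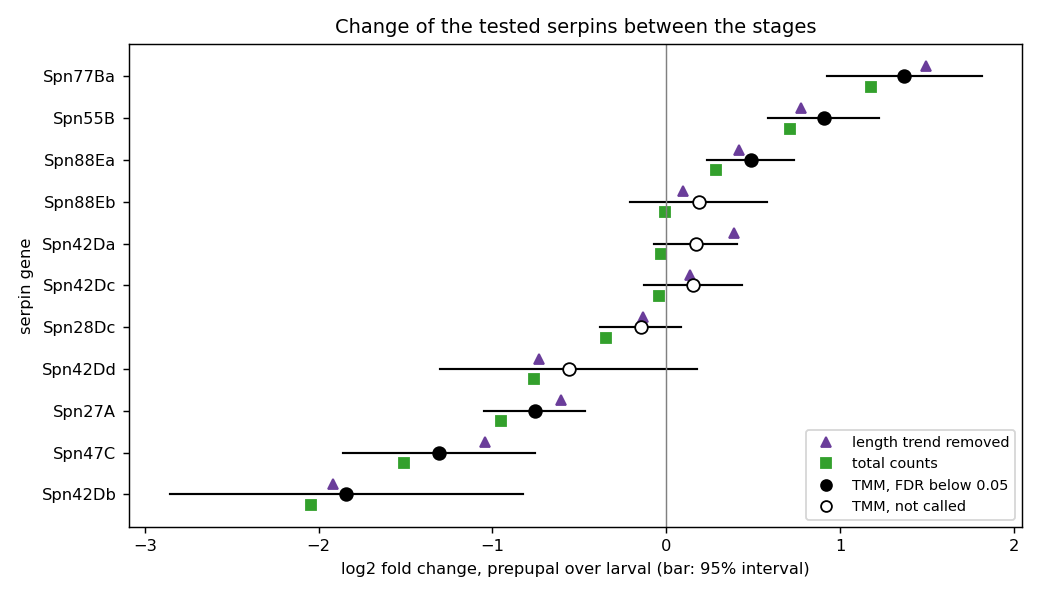
Log2 fold change of the 11 tested serpins, prepupal over larval, with 95% intervals (black bars). Filled circles are called at an FDR below 0.05 and open circles are not, while triangles and squares give the values with the length trend removed and with total counts; the 6 called genes lie on the same side of 0 in all 3, and Spn88Eb, Spn42Da and Spn42Dc cross 0 with total counts.

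A change of at least 2-fold was found for 3 of the called serpins, Spn77Ba, Spn47C and Spn42Db, out of 11 tested, while 20.0% of all tested genes were called with at least 2-fold. All 3 had at most 12.7 CPM in any larval library. The 6 most abundant serpins had fitted changes of less than 2-fold.

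The cascades that serpins restrain were covered unevenly. Of the 15 listed proteases of the Toll and melanization cascades, 11 were in the table and 5 were tested, of which 3 were called higher and none lower, against 53.9% of all tested genes called and 26.6% called higher. With 5 genes, nothing particular to the list can be read from this count. The protease modSP, which starts the Toll cascade after pattern recognition, rose from 67.3 ± 9.15 to 149 ± 10.6 CPM (SD, n = 3 each, log2 fold change 1.14). Its downstream protease grass rose from 36.2 ± 7.67 to 64.2 ± 7.17 CPM (SD, n = 3 each, log2 fold change 0.83). Sp7, a protease that activates prophenoloxidase, rose from 8.81 ± 2.40 to 18.5 ± 2.42 CPM (SD, n = 3 each, log2 fold change 1.07). Their FDR values were 0.00011, 0.0021 and 0.0018 (edgeR). Hayan and gd were tested and not called. SPE, which cleaves Spätzle, had between 1 and 12 counts per library.

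Of the Toll ligand and its receptor, spz was called lower, from 126 ± 45.4 to 27.0 ± 1.68 CPM (SD, n = 3 each, log2 fold change -2.22, FDR = 7.6e-05, edgeR). Tl was at 87.9 ± 12.7 and 83.3 ± 21.2 CPM (log2 fold change -0.078, FDR = 0.74, edgeR), and at 0.37 with the length trend removed (FDR = 0.11). With the replicate number of the libraries added to that fit as a block, Tl was called higher, at 0.36 (FDR = 0.021, edgeR). Of the 7 listed factors and target genes of the pathway, 5 were tested and 4 were called lower, against 27.3% of all tested genes. A list of 5 tested genes is too short to read this count as particular to the pathway. Dif, an NF-κB factor, fell from 37.3 ± 6.35 to 7.42 ± 1.03 CPM (SD, n = 3 each, log2 fold change -2.33, FDR = 1.0e-05, edgeR), and cact, the inhibitor that holds such factors in the cytoplasm, had a log2 fold change of -0.76 (FDR = 0.00068), or -0.47 with the length trend removed. Mtk, which encodes an antifungal peptide, varied between 53.6 and 175 CPM in larval and between 29.1 and 59.2 CPM in prepupal libraries, so the stages overlapped. Its log2 fold change was -1.35 (FDR = 0.014, edgeR), and -1.11 (FDR = 0.058) without prepupal replicate 3. Drs, which encodes the antifungal peptide drosomycin, went from 6.02 ± 2.78 to 1.49 ± 0.920 CPM (SD, n = 3 each) in ranges that did not overlap, and fell by 2.01 on the log2 scale (FDR = 0.0074, edgeR). Another NF-κB factor gene, dl, was at 62.2 ± 9.56 and 78.3 ± 14.4 CPM (SD, n = 3 each) and was not called (log2 fold change 0.33, FDR = 0.11, edgeR). It was called higher with the replicate block (0.33, FDR = 0.010), with the length trend removed (0.85, FDR = 0.0049) and without prepupal replicate 3 (0.47, FDR = 0.043).

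All 3 prophenoloxidases were called, PPO1 and PPO2 lower and PPO3 higher, against 53.9% of all tested genes called. A list of 3 genes is too short to read anything particular from this count. PPO1 and PPO2, which belong to crystal cells, went from 1037 ± 283 to 547 ± 209 and from 1525 ± 314 to 471 ± 249 CPM (SD, n = 3 each), with log2 fold changes of -0.92 and -1.70 (FDR = 0.019 and 0.0027, edgeR). PPO1 was not called without larval replicate 3 (-0.66, FDR = 0.065) or prepupal replicate 3 (-0.95, FDR = 0.052). PPO3, known from lamellocytes, rose from 23.2 ± 1.76 to 56.8 ± 5.79 CPM (SD, n = 3 each, log2 fold change 1.29, FDR = 4.5e-05, edgeR).

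The list of protease inhibitors of other families also holds thioester proteins. Of its 15 genes, 14 were in the table and 9 were tested, with 4 called higher and 2 lower. The share called was thus 6 of 9, against 53.9% of all tested genes. The cathepsin inhibitor cer rose from 163 ± 65.3 to 719 ± 105 CPM (SD, n = 3 each, log2 fold change 2.14), and fat-spondin, a secreted protein with a Kunitz inhibitor domain, from 1624 ± 105 to 3940 ± 251 CPM (SD, n = 3 each, log2 fold change 1.28). With the length trend removed, cer was at 1.60 and fat-spondin at 1.47. Tep2, a thioester protein, had a log2 fold change of 1.53 and Tep1 one of -0.84, or 1.96 and -0.48 with the length trend removed. Ppn, a matrix proteoglycan with Kunitz domains, fell from 1525 ± 1126 to 33.9 ± 15.3 CPM (SD, n = 3 each, log2 fold change -5.49). Larval replicate 3, at 2819 CPM against 990 and 766 CPM in the other two, carried much of the larval mean, and without it the log2 fold change was -4.68. With the length trend removed it was -4.80. The FDR values of these 5 genes lay between 5.2e-05 and 0.0032 (edgeR). Timp, an inhibitor of metalloproteinases, was the remaining called gene, at 0.406 ± 0.249 and 1.86 ± 0.113 CPM (SD, n = 3 each, log2 fold change 2.15, FDR = 0.0032, edgeR), and at 2.80 without larval replicate 1.

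**Figure D4:**
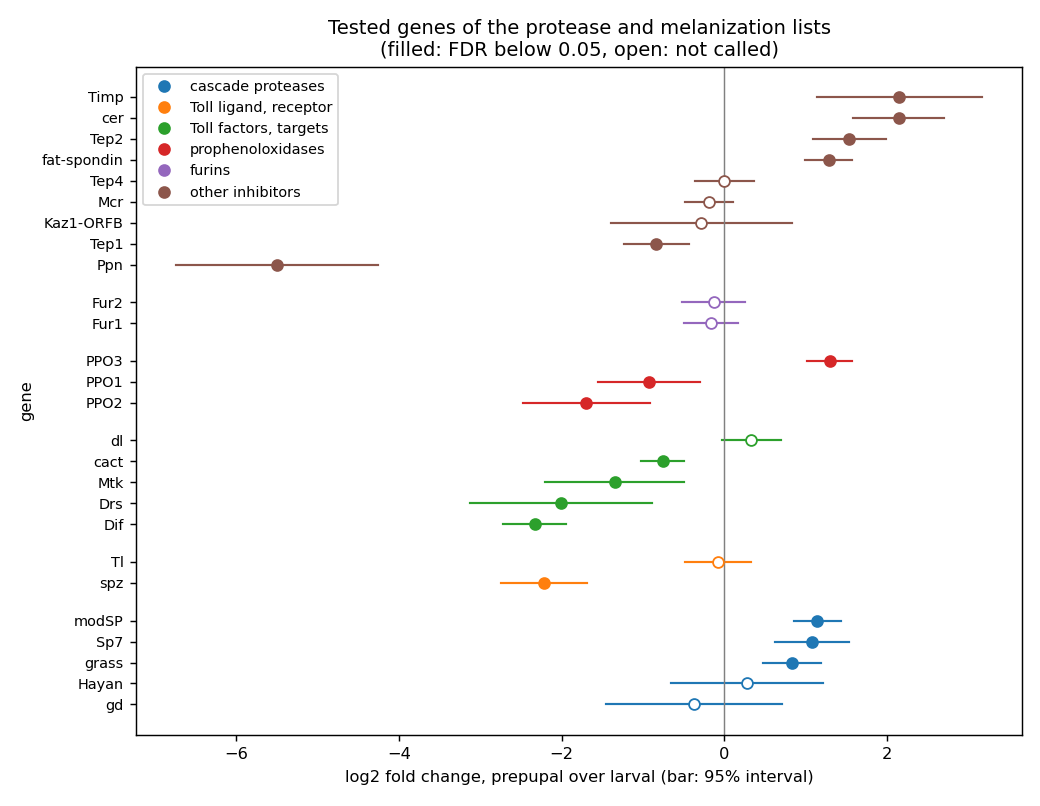
Log2 fold change, prepupal over larval, of the tested genes in 6 lists of proteases, Toll pathway genes, prophenoloxidases and other inhibitors, with 95% intervals (bars). Filled circles are called at an FDR below 0.05 and open circles are not; the called cascade proteases modSP, grass and Sp7 lie to the right of 0, and spz, Dif, PPO1 and PPO2 to the left.

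Markers of other cells were checked because the fat body also makes serpins. The 7 fat body markers were all detected and summed to between 40.5 and 58.1 CPM in larval and between 50.2 and 58.1 CPM in prepupal libraries. Of the 6 that were tested, 2 were higher and 1 lower, against 26.6% and 27.3% of all tested genes. With 6 genes, nothing particular to the list can be read from this count. The crystal cell markers summed to between 2049 and 3211 CPM in larval and between 555 and 1472 CPM in prepupal libraries, of which PPO1 and PPO2 make up nearly all. The 8 plasmatocyte markers summed to between 10419 and 15783 CPM in larval and between 3058 and 4057 CPM in prepupal libraries. The 4 lamellocyte markers, with cher and PPO3 as the main contributors, summed to between 651 and 913 CPM in larval and between 70.2 and 83.3 CPM in prepupal libraries. The fall of this sum was that of cher, from 772 ± 135 to 18.4 ± 8.87 CPM (SD, n = 3 each, log2 fold change -5.39). PPO3 went the other way, from 23.2 to 56.8 CPM, while ItgaPS4 was not called and atilla was not tested. No gene of these lists was at 0 in all libraries, and their part in the change of Spn27A, Spn77Ba and the other called serpins was not tested. Salivary gland and muscle markers reached at most 9.82 and 11.7 CPM in sum. Of the 6 and 4 tested genes of these lists none was called, against 53.9% of all tested genes. Some of them rested on few counts, such as Sgs8 (9 to 21) and wupA (6 to 25). Of 5 digestive proteases of the midgut, 2 were tested and 1 was called higher, too few to set against the 26.6% of all tested genes. The sum of the 5 lay between 4.17 and 7.36 CPM in larval and between 9.21 and 16.4 CPM in prepupal libraries.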

How the data were processed

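RNA of sorted hemocytes was sequenced as single reads of 50 bp from unstranded mRNA libraries. According to the methods, the authors trimmed the reads and used STAR to map them to dm6 (Ensembl release 101), and the submitters' processing notes name featureCounts. The authors deposited raw counts per gene, which were used without change, and the sources used here do not give the strand and multi-mapping settings. The stages were compared by the quasi-likelihood test of edgeR 4.0.16 (R 4.3.3) after scaling by TMM factors. Genes had to pass filterByExpr at its minimum count of 10, and p-values were adjusted over 7914 genes by the Benjamini-Hochberg method (FDR, threshold 0.05). The standard error is the size of the log2 fold change divided by the square root of F. The methods state RNA isolation in triplicate and, for the study in general, work with different flies or cells on separate days, but do not say how the animals of single libraries were collected. Where libraries share a collection, p-values measure only the spread between these samples, which may be technical. More counts give smaller errors, and intervals for genes of few counts are wide.

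Exonic lengths came from Ensembl release 115, in which 13298 of 13332 shared genes and all 19 serpins had identical coordinates. All serpins, every gene of the short lists that passed the filter (Toll ligand and receptor, prophenoloxidases, furins) and those genes of the longer lists (cascade proteases, other inhibitors, Toll factors and targets) that were called and averaged 5 CPM or more across the 6 libraries were named. Drs, Timp and dl were added after their values were seen. Lists of markers for plasmatocytes, crystal cells, lamellocytes, fat body, salivary glands, muscle and midgut were also counted. The members and lists were chosen with earlier results of these data known. Replicate numbers recur in both stages. Once the stage means were subtracted, larval and prepupal libraries with the same number correlated across genes at 0.28, 0.30 and 0.102. Libraries with different numbers were not compared in this way, so these values cannot show whether the numbers pair the libraries. The labels do not explain the numbers. The methods name no block, so it was run beside the fit without one. Alternatives were other scalings, filters, thresholds, DESeq2 1.42.0, limma-voom (limma 3.58.1), the replicate block, the removal of the length trend and leaving out each library. Scripts were tested on simulated data.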

Additional observations from a re-analysis of the deposited data

How the results depend on the processing

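The 6 called serpins were called under each alternative tried except the requirement of at least 2-fold, under which 3 remained (Spn42Db, Spn47C and Spn77Ba) and the number called higher dropped from 3 to 1, while that of all genes dropped from 4264 to 1580 and of those higher from 2105 to 621. Leaving out each library in turn gave 3 to 4 serpins called higher and 3 to 4 called lower, with 11 to 12 tested. Without a low-count filter 18 serpins were tested. The replicate block gave the same 6 calls, 3 higher and 3 lower (Spn27A -0.76, Spn77Ba 1.39), and changed the call of 1 gene named, dl (0.33, called higher). With the length trend removed and no block, Spn27A, Spn47C and Spn42Db were at -0.61, -1.04 and -1.92. Spn55B, Spn88Ea and Spn77Ba were then at 0.77, 0.42 and 1.49. In the same fit as the block, the length trend removed gave 0.39 for Spn42Da (FDR = 0.0096, edgeR). With total counts the prepupal over larval ratio of the summed serpin CPM was 0.75 rather than 0.86, and the log2 fold changes of Spn42Da, Spn42Dc and Spn88Eb turned to -0.029, -0.043 and -0.0047. The ratio lay between 0.83 and 0.89 with each library left out. With the length trend removed, Fur1, Fur2 and Tl turned to 0.49, 0.42 and 0.37, and with the block added to 0.49, 0.43 and 0.36, where Tl was called (FDR = 0.021, edgeR). With each library left out, Tl ranged from -0.30 to 0.061 and Fur2 from -0.29 to 0.039. Tl was above 0 without larval replicate 1 or prepupal replicate 3, and Fur2 without larval replicate 3. The cause was not tested. The 6 lists of other genes held few tested genes. These were 2 for Toll ligand and receptor, 3 prophenoloxidases, 2 furins, 5 cascade proteases, 9 other inhibitors and 5 Toll factors and targets. Of them 17 were called, and between 16 and 17 with each library left out. The number was 22 with the length trend removed, 18 in the blocked fit and 23 with both. Over all tested genes 4264 were called, or 53.9%, and between 3251 and 4552 with each library left out. The number was 4035 with the length trend removed, 4736 in the blocked fit and 4187 with both. Genes with few counts, such as Spn42Db, limit what these depths can show.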
